A study of Mus musculus with 18 samples.

Results

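Layer 6 corticothalamic neurons of the prefrontal cortex (PFC) were picked from single-nucleus RNA sequencing (snRNA-seq) by the unique molecular identifiers (UMIs, counted molecules) of marker genes. A nucleus was taken when it held at least 2 UMIs of Foxp2, at least 3 of Hs3st4 and Syt6 together and at least 1 of Slc17a7. It could hold at most 1 UMI of Gad1 and Gad2, at most 1 of Cplx3, Nxph4 and Ctgf, at most 3 of Tshz2 and at most 1 over 7 glial and vascular genes. In all, 3016 of 66602 PFC nuclei met these limits. They came from 35450 excitatory nuclei, which were held only to the limits on Slc17a7, on Gad1 and Gad2 and on the glial and vascular genes. Because measured UMIs chose the nuclei, the levels of the chosen genes are given below as a description, with no test.

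Corticothalamic neurons of layer 6 are glutamatergic cells of the deepest cortical layer that send their main axon to the thalamus. They return cortical output to the thalamic nuclei that feed the same area, excite inhibitory cells of the thalamic reticular nucleus on the way, and leave collaterals in the cortex. Their fate depends on transcription factors such as Tbr1, Sox5, Fezf2 and Tle4, and mature cells carry the forkhead factor Foxp2, the heparan sulfate sulfotransferase Hs3st4 and the synaptotagmin Syt6.

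The study asked how the gut microbiota shapes gene expression of brain cell types. Kun Ming mice were germ-free (GF), specific pathogen-free (SPF), or colonized (CGF, which were GF mice that shared an isolator with SPF mice from 4 weeks of age for 4 weeks). GF and CGF mice lived in gnotobiotic film isolators and SPF mice were raised elsewhere. All were harvested at 8 weeks of age, and each group gave 3 PFC libraries of 1 mouse each. Kun Ming is an outbred stock, so mice of a group also differ in genotype. Values below follow the order SPF mice 30, 31 and 32, CGF mice 17, 18 and 19, and GF mice 5, 6 and 7.

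The chosen nuclei numbered 197, 282 and 304 in SPF, 148, 281 and 139 in CGF, and 647, 476 and 542 in GF. Their summed UMIs ranged from 949903 to 1561947 per SPF library, from 638850 to 1508437 per CGF library and from 5403970 to 6528913 per GF library. The GF libraries stood apart in every one of these counts. No barcode of a chosen nucleus occurred in more than 1 library, while 518 barcodes did so among all kept nuclei.

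The GF libraries also differed in what their UMIs held. A chosen nucleus had a median of 4155 to 4555.5 UMIs in SPF, 3745 to 4876 in CGF and 9127 to 10162.5 in GF libraries. Transcripts linked to ribosomal RNA took 1.21 to 1.75% of UMIs in SPF, 1.73 to 2.25% in CGF and 0.0196 to 0.0262% in GF, and mitochondrial genes took 0.952 to 1.92%, 0.710 to 1.21% and 0.187 to 0.436%. Genes annotated as antisense took 0.433 to 0.456%, 0.470 to 0.535% and 1.32 to 1.59%. The germ-free state and these properties of the libraries cannot be told apart in a comparison of GF with SPF or CGF. SPF and CGF libraries overlapped in the depth of chosen nuclei. They did not overlap in the antisense share, nor in median UMIs over all kept nuclei, at 3037 to 3208 in SPF and 2353 to 3035.5 in CGF. These properties too cannot be told apart from colonization.

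**Figure D1:**
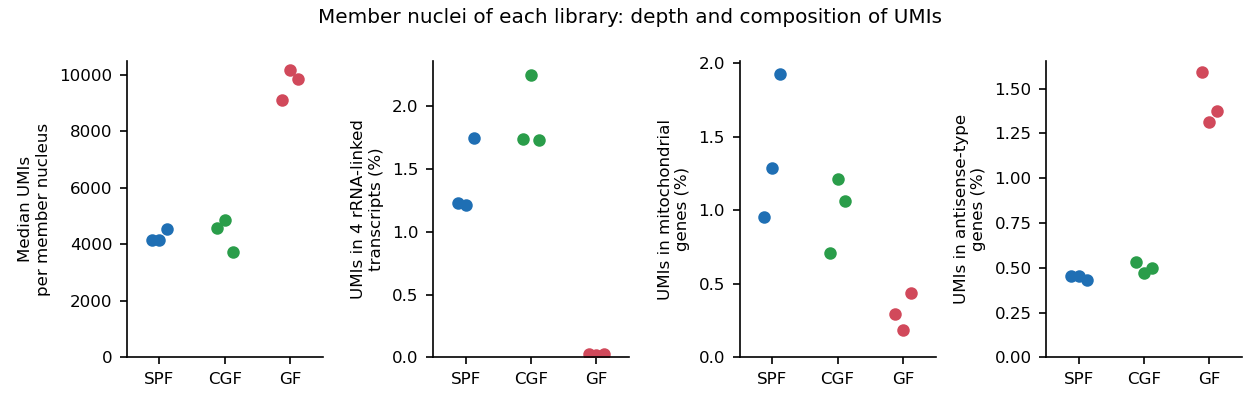
Points are single libraries (3 SPF, 3 CGF and 3 GF), and the panels plot the median UMIs per chosen nucleus and the percent of UMIs in ribosomal-RNA-linked transcripts, mitochondrial genes and antisense-type genes, each from 0. GF points lie apart from SPF and CGF points in all 4 panels, with medians of 9127 to 10162.5 UMIs against 3745 to 4876.

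By the rule, Foxp2 stood at 657 ± 15.1 CPM in SPF, 649 ± 34.3 in CGF and 682 ± 10.7 in GF (SD, n = 3 each; CPM is a gene's share of the summed UMIs of a class and library, on the usual scale, here without further scaling between libraries). These Foxp2 levels hold only for nuclei with at least 2 Foxp2 UMIs, at unequal depth. Over all nuclei of the leading cluster described below, Foxp2 was at 430 to 488 CPM in SPF, 321 to 472 in CGF and 772 to 807 in GF. Syt6 lay between 98.1 and 182 CPM in the chosen nuclei and between 2.34 and 16.3 CPM in other excitatory nuclei. Hs3st4 lay between 3231 and 5439 CPM against 234 to 519. A UMI of Syt6 was found in 51.7% of chosen nuclei in SPF, 44.2% in CGF and 68.3% in GF. The limit was on Hs3st4 and Syt6 together.

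The chosen nuclei carried the genes that mark corticothalamic neurons beyond those of the rule. Of 19 further corticothalamic genes, 17 were higher in the chosen nuclei than in the other excitatory nuclei in all 9 libraries, and only Rxfp1 and Pcsk5 were not. The comparator was 27737 excitatory nuclei with no Foxp2 UMI. Over the 19 genes the median log2 ratio was 1.83. Over 16701 genes with at least 100 UMIs in both classes together it was -0.0038, and 7.13% were higher and 13.3% lower in all 9 libraries. Since the nuclei were chosen by correlated genes, these ratios describe the choice and were not tested. The gene list was also chosen with earlier results of these data known.

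Tle4, a corepressor of the Groucho family, stood at 497, 486 and 529 CPM in SPF, 494, 532 and 465 in CGF and 407, 366 and 366 in GF. In the other excitatory nuclei it lay between 42.3 and 82.3 CPM, so the classes did not overlap in any library. Zfpm2, a zinc finger cofactor of GATA proteins, was 8.30 to 14.1 times higher in the chosen nuclei. Chrna5, the alpha5 nicotinic receptor subunit that layer 6 neurons use to respond to acetylcholine, was 10.4 to 24.3 times higher, at 15.3 to 34.6 CPM. The list as a whole summed to 6439 to 7397 CPM in SPF, 6327 to 7702 in CGF and 7866 to 8057 in GF, against 2038 to 2291 CPM in other excitatory nuclei.

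The 15 genes whose lowest ratio over the libraries was largest held, besides Tle4 and Zfpm2, genes of guidance, matrix and signalling. The repulsive guidance cue Sema5a was 6.60 to 18.9 times higher than in other excitatory nuclei. The Rac regulator Arhgap25 was 5.86 to 8.76 times higher, the actin-binding protein Rai14 5.30 to 7.58 times and the fibrillar collagen Col5a1 4.56 to 7.23 times. The semaphorin receptor Nrp1 was 3.25 to 5.70 times higher, the glycine receptor subunit Glra2 4.24 to 7.87 times and the carboxypeptidase Cpa6 4.30 to 7.67 times. In the axon guidance and adhesion list, 12 of 45 genes were higher and 24 lower in all 9 libraries.

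Upper-layer genes were low. Of 7 upper-layer genes, 6 were lower than in other excitatory nuclei in all 9 libraries, with a median log2 ratio of -1.59 over the list. Cux2, a homeobox gene of upper-layer neurons, was 3.499 to 10.8 times lower, and Rorb, a nuclear receptor of layer 4, was 2.13 to 3.76 times lower. Further genes were picked here after their values were seen. The netrin receptor Unc5d was 3.54 to 7.25 times lower and the Ras exchange factor Rasgrf2 4.44 to 9.74 times lower. Genes of other deep neurons were less often lower in all 9 libraries. Lower in all 9 libraries were 3 of 6 layer 5 extratelencephalic genes (median log2 ratio -0.40), 1 of 6 layer 6 intratelencephalic and Car3 genes (-0.42) and 0 of 3 near-projecting genes outside the rule (-0.17). Where the chosen nuclei held 0 UMIs, the median log2 ratios took 3 UMIs, which raises ratios of low genes. Near-projecting genes outside the rule summed to 5.13 to 8.42 CPM in SPF, 6.26 to 26.1 in CGF and 4.63 to 26.5 in GF. In other excitatory nuclei they summed to 17.3 to 28.3, 18.2 to 26.2 and 21.6 to 37.0 CPM. Layer 6 intratelencephalic and Car3 genes summed to 8.06 to 43.2 CPM over all libraries, against 26.8 to 55.4.

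**Figure D2:**
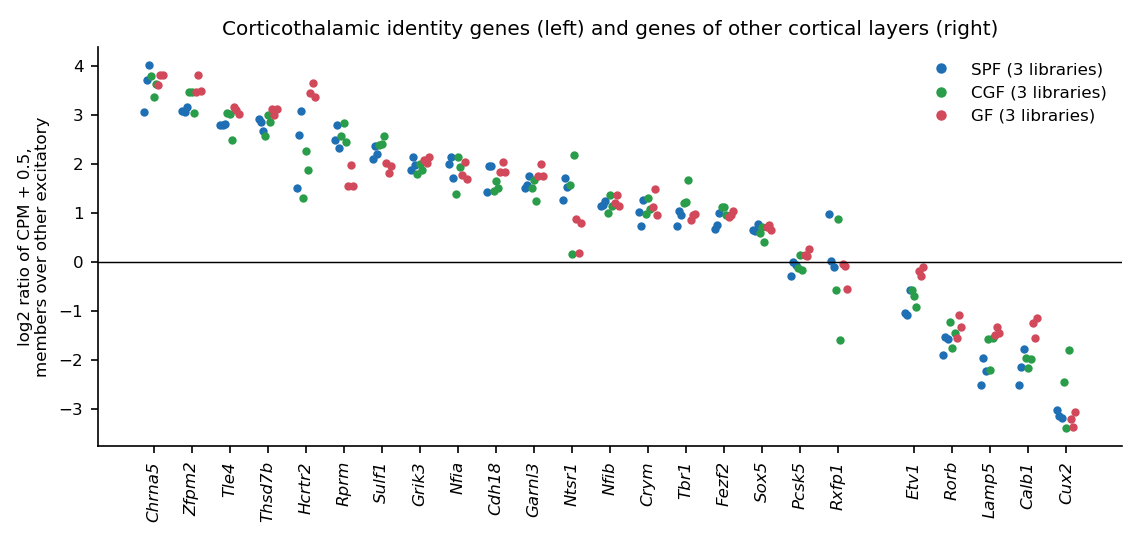
The y axis is the log2 ratio of unscaled CPM (0.5 CPM added to both) of the chosen nuclei over other excitatory nuclei, with 1 point per library coloured by group. Of the 19 corticothalamic genes on the left, 17 lie above 0 in all 9 libraries, while Cux2, Calb1, Lamp5, Rorb and Etv1 on the right lie below 0 in all 9.

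Tle4 was also told apart per nucleus. A UMI of Tle4 was found in 83.3% of chosen nuclei in SPF, 84.9% in CGF and 88.3% in GF. The share was 20.2%, 17.9% and 26.0% in other excitatory nuclei. In oligodendrocyte nuclei, which should lack Tle4, it was 13.8%, 10.1% and 20.5%, at median depths of 1148.5, 1170 and 2229 UMIs against 4254, 4502 and 9687 in the chosen nuclei.

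Markers of other cell types were low but not at 0. Interneuron genes outside the rule summed to 158 to 265 CPM in the chosen nuclei over the 9 libraries, and glial and vascular genes outside the rule to 199.96 to 245 CPM in SPF, 142 to 177 in CGF and 123 to 146 in GF. SPF libraries were the highest in the glial and vascular sum, with no overlap. Doublet scoring marked 6.72 to 15.8% of chosen nuclei per library, and these nuclei were kept. Just outside the limits, 134 to 243 nuclei per library held exactly 1 Foxp2 UMI and met every other limit, while 62 to 126 chosen nuclei per library held exactly 2. The median was 3 Foxp2 UMIs in SPF and CGF and 6 in GF.

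Clustering gave a view that did not use the genes of the rule. Excitatory nuclei of each group were clustered without those genes, and in each group 1 cluster held most of the chosen nuclei. That cluster held 1593 nuclei in SPF, 1446 in CGF and 1434 in GF. Per library it took in 86.8 to 89.8% of chosen nuclei in SPF, 84.2 to 90.7% in CGF and 74.0 to 82.1% in GF. Of the chosen nuclei outside it, doublet scoring had marked 55 of 88 in SPF, 45 of 67 in CGF and 133 of 366 in GF.

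The reverse share moved with depth. Chosen nuclei made up 37.4 to 53.0% of the cluster in SPF libraries, 21.2 to 46.0% in CGF and 88.3 to 92.2% in GF. After each nucleus was thinned to 2000 UMIs, the shares were 13.1 to 17.6%, 10.2 to 18.97% and 19.5 to 19.9%. The comparator of other excitatory nuclei therefore also held some of this cluster, at 3.88 to 5.53% of its nuclei in SPF and 3.97 to 8.00% in CGF but 0.312 to 0.618% in GF. Most class differences called below are given with a cluster-restricted value, which used only chosen nuclei inside the cluster and comparator nuclei outside it. Comparisons of the chosen nuclei between groups were repeated on those inside the cluster, and that value is given where the call or direction changed and for some other genes. Only the genes of the rule and mitochondrial genes were left out of the clustering. Any other gene tested could help to form the cluster, so values and p restricted by cluster are not an independent check of that gene.

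The share of excitatory nuclei that met the limits was higher in GF than in SPF or CGF libraries, without passing a pairwise test, while the leading cluster did not show this order. After thinning to 2000 UMIs they were 3.27% ± 0.580 of excitatory nuclei in SPF, 2.85% ± 0.892 in CGF and 5.16% ± 1.33 in GF (SD, n = 3 each). GF libraries did not overlap SPF or CGF libraries, while SPF and CGF libraries overlapped. The difference was 1.89 percentage points for GF minus SPF and 2.30 for GF minus CGF, each with an exact two-sided permutation p of 0.1 (0.15 adjusted over the 3 pairs), the smallest that 3 against 3 allows. For CGF minus SPF it was -0.413 points (exact permutation p = 0.5). An exact permutation test of F over the 3 groups, with 1680 arrangements, gave p = 0.0179. Over all nuclei of the leading cluster, Foxp2 stood at 772 to 807 CPM in GF, above every SPF and CGF library. A limit of 2 Foxp2 UMIs cannot tell more such nuclei from more Foxp2 per nucleus. The share also depends on how many thinned nuclei counted as excitatory, and these tests do not show which of these differed. All thinned nuclei, excitatory or not, numbered 3959, 4917 and 5077 in SPF, 4454, 4869 and 4441 in CGF and 6675, 6613 and 7815 in GF. Thinning left 2105, 2847 and 2504 excitatory nuclei in SPF, 1946, 2379 and 2351 in CGF and 2078, 2203 and 2344 in GF, of 3152 to 4219, 3460 to 3947 and 4225 to 4495 before it. The leading cluster held 1593 of 11255 excitatory nuclei in SPF, 1446 of 11177 in CGF and 1434 of 13018 in GF, and its sizes were not tested, since each group was clustered by itself.

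As a share of all thinned nuclei the order changed. Chosen nuclei were 1.74% in SPF, 1.36% in CGF and 1.62% in GF, and GF minus SPF was -0.125 points (exact permutation p = 0.9). For this share the exact permutation test of F over the 3 groups gave p = 0.457. Nuclei under 2000 UMIs were left out of the thinned shares, 5995 in SPF, 8323 in CGF and 3464 in GF, with 16, 17 and 1 chosen nuclei among them. Without thinning the share of excitatory nuclei was 6.92% ± 0.815 in SPF, 5.08% ± 2.09 in CGF and 12.8% ± 2.22 in GF (SD, n = 3 each).

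**Figure D3:**
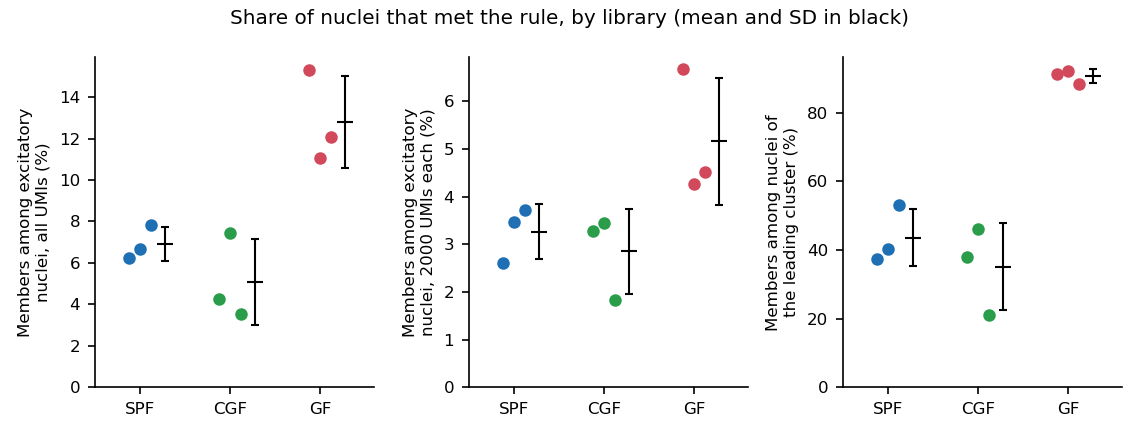
Points are single libraries and black bars are group means with SD (n = 3 each), and the panels plot the chosen nuclei as a percent of excitatory nuclei without thinning, the same after thinning to 2000 UMIs, and as a percent of the nuclei in the leading cluster. GF libraries lie above SPF and CGF libraries in each panel without a depth correction, and the gap narrows to 5.16% against 3.27% and 2.85% after thinning.

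Colonized and SPF mice were compared first, because their chosen nuclei had like depth. UMIs of chosen nuclei were summed per library and tested by edgeR's quasi-likelihood test with Benjamini-Hochberg adjustment. Values are CPM scaled between libraries by the trimmed mean of M-values (TMM) from here on. Of 10889 genes tested, 7 were higher in CGF (0.0643%) and 4 lower (0.0367%). An unadjusted p under 0.05 was reached by 948 genes, and DESeq2 called 31. Mice may also differ in sex, litter or cage, within or between groups, and the labels name none of these.

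The higher genes included Sim2, a transcription factor of the bHLH-PAS family (chr16:94084931-94127032, + strand, mm10). Sim2 stood at 0, 0 and 0.649 CPM in SPF, at 104, 118 and 186 in CGF, and at 0, 0.204 and 0 in GF. Every CGF library was high and every SPF and GF library was at or near 0 (adjusted p = 6.75e-09 by edgeR for CGF against SPF). No fold is given, since SPF held 1 UMI in all.

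Sim2 was not particular to these nuclei. A UMI was found in 262 of 568 chosen nuclei in CGF (46.1%, 39.9 to 54.7% per library), in 1 of 783 in SPF and in 1 of 1665 in GF. Other excitatory nuclei of CGF held it in 44.1%, interneuron nuclei in 36.5% and oligodendrocyte nuclei in 8.86% (7 of 79). The depth of the oligodendrocyte nuclei was a median of 1170 UMIs, against 4502 in the chosen nuclei.

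Mid1, an E3 ubiquitin ligase of microtubules, was at 78.9, 36.2 and 57.1 CPM in SPF, 140, 297 and 200 in CGF and 202, 189 and 200 in GF. CGF and SPF libraries did not overlap, and CGF was higher by 1.96 on the log2 scale (SE 0.24, edgeR adjusted p = 8.91e-04). GF was higher than SPF by 1.81 (adjusted p = 3.04e-06). Both comparisons share the SPF libraries. Other excitatory nuclei gave 2.02 for CGF minus SPF (adjusted p = 0.00406).

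Cdk8, the kinase of the Mediator complex, was at 232, 212 and 258 CPM in SPF, 362, 384 and 361 in CGF and 137, 156 and 157 in GF. CGF libraries were the highest and GF libraries the lowest, with no overlap. CGF exceeded SPF by 0.66 (SE 0.11, edgeR adjusted p = 0.0273). Nvl, a nuclear ATPase of ribosome assembly, stood at 133, 112 and 191 CPM in SPF, 262, 237 and 282 in CGF and 122, 132 and 118 in GF. CGF was higher than SPF by 0.82 (SE 0.15, adjusted p = 0.0442).

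Fbxl7, an F-box subunit of ubiquitin ligases, was at 16.98, 9.24 and 15.6 CPM in SPF, 37.1, 50.6 and 33.6 in CGF and 21.8, 15.3 and 12.7 in GF. CGF was higher than SPF by 1.61 (SE 0.30, edgeR adjusted p = 0.0396). AY036118, a transcript linked to ribosomal RNA that overlaps Gm42418 on the opposite strand, was higher by 0.87 (SE 0.15, adjusted p = 0.0273). Psat1, an aminotransferase of serine synthesis, had too low a mean to be named by rule and was picked after its values were seen. It stood at 6.99, 4.97 and 4.54 CPM in SPF and 19.1, 22.3 and 20.5 in CGF, with 25.6, 28.6 and 28.5 in GF, and CGF was higher by 1.96 (SE 0.30, adjusted p = 0.0111). Psat1 had a UMI in 2.43% of chosen nuclei in SPF, 9.33% in CGF and 23.2% in GF, against 11.3%, 6.33% and 20.997% of the shallower oligodendrocyte nuclei. The shares were 2.9%, 8.2% and 22.1% in other excitatory nuclei and 3.3%, 3.9% and 7.5% in interneuron nuclei.

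The 4 genes lower in CGF were Col11a1, Gm45844, Nrg1 and Nptxr. Nptxr, a receptor of neuronal pentraxins at excitatory synapses, was at 94.9, 111 and 109 CPM in SPF, 51.4, 64.8 and 59.9 in CGF and 45.9, 41.3 and 52.2 in GF. It fell by 0.83 on the log2 scale in CGF against SPF (SE 0.15, edgeR adjusted p = 0.0395), and it overlaps Npcd on the same strand. Gm45844, which overlaps Vmn2r29 on the same strand, was at 129, 68.2 and 83.0 CPM in SPF and 20.3, 22.9 and 45.3 in CGF, and fell by 1.72 (SE 0.30, adjusted p = 0.0273). In both genes every CGF library lay below every SPF library.

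Few of these calls were robust to leaving out 1 library. Sim2, Mid1, Nrg1 and Psat1 kept their call whichever SPF or CGF library was left out (for Psat1 with an adjusted p of at most 0.0499), and the other 7 lost it at least once. Inside the leading cluster Cdk8 (0.62, edgeR adjusted p = 0.0550), Psat1 (1.74, 0.0550) and Nptxr (-0.99, 0.101) were no longer called. In other excitatory nuclei, edgeR gave CGF minus SPF values of 0.72 for Cdk8 (adjusted p = 0.0147), 1.30 for Fbxl7 (0.0133), 1.64 for Psat1 (3.51e-05), 0.73 for Nvl (0.0647), -0.79 for Nptxr (0.210) and -1.91 for Gm45844 (0.0147). The lists of receptors, channels, release genes, guidance genes and corticothalamic genes each held 0 called genes. Over all genes only 0.0643% were higher and 0.0367% lower, so 0 calls in short lists do not set these lists apart. The corticothalamic list had a median log2 change of -0.053, beside 0.002 over all genes.

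Col11a1 and Nrg1 were the genes whose difference between the chosen nuclei and other excitatory nuclei of the same libraries was unequal between CGF and SPF. A second edgeR fit took 2 sums per library, 1 of chosen and 1 of other excitatory nuclei, with the library as a block. It asked whether the difference between the classes was unequal between groups. For CGF minus SPF, 0 of 16273 genes had a higher difference (0%) and 2 had a lower one (0.0123%). An unadjusted p under 0.05 was reached by 844 genes, and DESeq2 called 1. For the other 9 genes called between CGF and SPF, this fit gave adjusted p from 0.972 to 1.

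Col11a1 encodes a chain of fibrillar collagen XI (chr3:114030540-114220718, + strand, mm10). In the chosen nuclei it stood at 63.6, 37.9 and 42.2 CPM in SPF, 12.9, 13.6 and 4.24 in CGF and 3.53, 5.19 and 8.61 in GF. In other excitatory nuclei it stood at 45.4, 37.2 and 42.3, then 31.1, 60.7 and 60.8, then 21.3, 29.7 and 26.4. The classes overlapped in SPF, whereas in every CGF and GF library the chosen nuclei were the lower class. The other excitatory nuclei of GF also lay below those of SPF, without overlap.

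The class difference of Col11a1 was lower in CGF than in SPF by 2.39 on the log2 scale (-2.39, SE 0.28, edgeR adjusted p = 3.48e-07). For GF minus SPF it was -2.32 (SE 0.22, adjusted p = 2.76e-10) and for GF minus CGF 0.07 (adjusted p = 0.975), and these share their libraries. Restricted by cluster, the values were -2.67 (adjusted p = 1.44e-08) and -2.94 (adjusted p = 4.05e-14). Within the chosen nuclei alone, CGF minus SPF was -2.06 (SE 0.36, adjusted p = 0.0273). Leaving out 1 library kept the within-library call each time, with an adjusted p of at most 0.00315, but choosing both classes after thinning lost it (-1.63, adjusted p = 1).

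Single nuclei showed the same pattern of Col11a1. It had 181 UMIs in 98 of 783 chosen nuclei in SPF (12.5%, 10.99 to 15.2% per library), 34 UMIs in 22 of 568 in CGF (3.87%, 1.44 to 5.34%) and 93 UMIs in 72 of 1665 in GF (4.32%, 2.63 to 6.83%). GF nuclei were the deepest, and no GF or CGF library reached the lowest SPF share. Other excitatory nuclei held it in 10.2%, 12.9% and 12.6%, and interneuron nuclei in 9.97%, 17.9% and 15.997%. Oligodendrocyte nuclei held it in 1 of 80, 0 of 79 and 5 of 381. Over all nuclei of the leading cluster, whether chosen or not, Col11a1 was at 42.0 ± 12.8 CPM in SPF, 12.3 ± 0.579 in CGF and 3.62 ± 2.16 in GF without scaling (SD, n = 3 each).

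Nrg1 encodes neuregulin 1, a ligand of ErbB receptors (chr8:31814551-32884029, - strand, mm10, overlapping Gm26578). The chosen nuclei held 3283, 3821 and 3583 CPM in SPF, 1869, 1933 and 1566 in CGF and 2718, 3078 and 3113 in GF. Other excitatory nuclei held 2584, 2586 and 2755, then 1827, 1942 and 1454, then 2619.5, 2715 and 2780.5. CGF libraries were the lowest in both classes, and the excess of the chosen nuclei over the others was largest in the SPF libraries.

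Within the chosen nuclei Nrg1 fell by 0.97 on the log2 scale in CGF against SPF (SE 0.13, edgeR adjusted p = 0.00132) and was higher in GF than in CGF by 0.70 (adjusted p = 1.69e-04). GF minus SPF was -0.27 (adjusted p = 0.0800). The class difference was lower by 0.39 in CGF than in SPF (-0.39, SE 0.07, adjusted p = 0.0137) and lower in GF than in SPF (-0.30, SE 0.07, adjusted p = 0.0157). Restricted by cluster, the values were -0.44 (adjusted p = 0.00356) and -0.34 (adjusted p = 0.00965). The CGF minus SPF call of the class difference was lost without SPF mouse 30 (adjusted p = 0.0590) or 31 (0.434), without CGF mouse 17 (0.137) or 18 (0.0650), and by DESeq2. The GF minus SPF call was lost without SPF mouse 31 (adjusted p = 0.306) or 32 (0.0566) and without GF mouse 5 (0.0997) or 7 (0.0583).

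**Figure D4:**
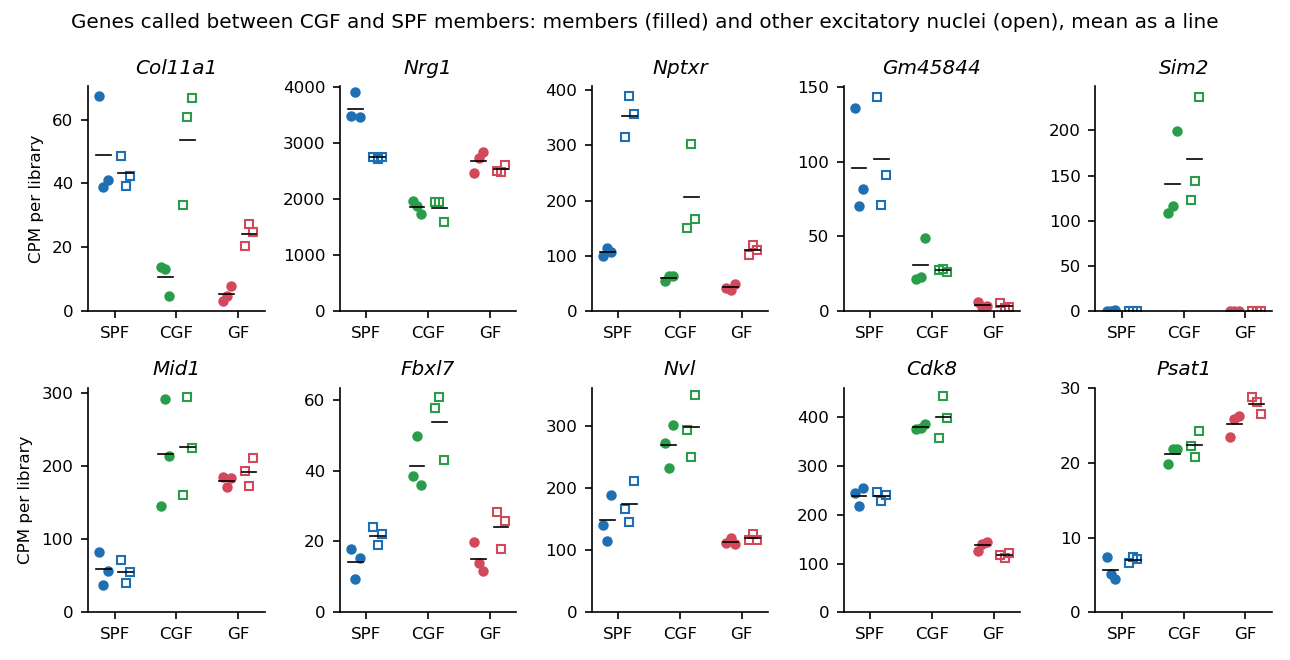
Each panel shows 1 gene called between CGF and SPF in the chosen nuclei, with CPM (not scaled between libraries, linear axis) on the y axis, filled points for chosen and open points for other excitatory nuclei of each library, and lines for group means. Sim2 and Mid1 shift in both kinds of nuclei, whereas for Col11a1 the filled points of CGF and GF lie below those of SPF while the open points overlap between SPF and CGF and are lower in GF, with class differences of -2.39 and -2.32.

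GF and SPF mice differed at many genes of these nuclei. By edgeR, 2704 of 10889 genes were higher in GF (24.8%) and 2623 lower (24.1%), and the counts of each list are read against these shares. Outside the rule, 2704 were higher and 2622 lower of 10882. With all sums thinned to the smallest total, 1002 genes were called. Of 6 glial and vascular genes tested, 0 were higher and 3 lower in GF (median -0.491), and their part in the results was not tested. Of the genes followed singly in this comparison, 59 kept direction and call inside the cluster, 3 lost the call, 1 gained it and 2 turned. Over all 10424 genes tested outside the rule inside the cluster, 23.0% were higher and 22.7% lower in GF than in SPF, and the counts of lists inside the cluster are read against these. Gene span and type moved with the comparison. Of 373 antisense-type genes 282 were higher and 17 lower, with a median of 2.81. Genes spanning over 100 kb had a median of 0.113 and those under 10 kb one of -0.133.

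Of the 19 corticothalamic genes, 6 were higher and 6 lower in GF than in SPF, with a median of -0.022 beside 0.010 over all genes. Tbr1 and Fezf2, transcription factors of deep layers, fell. Tbr1 (chr2:61802930-61814114, + strand) was at 75.9, 102 and 108 CPM in SPF, 65.7, 108 and 96.5 in CGF and 35.0, 41.1 and 38.8 in GF. Every GF library was below every SPF and CGF library, and GF minus SPF was -1.33 (SE 0.16, edgeR adjusted p = 1.90e-06), or -1.31 inside the cluster. Fezf2 was at 51.9, 37.7 and 62.9, then 52.6, 59.4 and 70.2, then 18.3, 20.4 and 22.5 CPM, a change of -1.32 (SE 0.18, adjusted p = 1.04e-05).

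Rprm, a cell cycle inhibitor that marks layer 6, was at 53.9, 66.1 and 60.3 CPM in SPF, 37.1, 78.3 and 40.9 in CGF and 21.3, 17.4 and 19.2 in GF. It was lower in GF than in SPF by 1.64 (-1.64, SE 0.21, edgeR adjusted p = 3.57e-06). Ntsr1, the neurotensin receptor whose promoter marks corticothalamic neurons in reporter mice, was at 19.98, 21.3 and 17.5, then 16.7, 6.07 and 26.3, then 6.20, 5.72 and 8.34 CPM. GF minus SPF was -1.52 (SE 0.33, adjusted p = 8.52e-04). The kainate receptor subunit Grik3 changed by -0.44 (adjusted p = 0.0062) and the nicotinic subunit Chrna5 by -0.76 (adjusted p = 0.0077), which inside the cluster was -0.47 (adjusted p = 0.0863) and with thinned sums 0.31.

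Among the genes higher in GF, Zfpm2 was at 830.1, 846 and 974 CPM in SPF, 819.9, 1147 and 819 in CGF and 1494, 1454 and 1486 in GF. GF was above every other library, by 0.74 against SPF (SE 0.13, edgeR adjusted p = 1.68e-04). The cadherin Cdh18 was at 706, 1157 and 1152, then 916, 1274 and 689, then 2112, 1912 and 1819 CPM, a change of 0.95 (SE 0.19, adjusted p = 5.01e-04). The orexin receptor Hcrtr2 changed by 0.95 (adjusted p = 0.00949), Nfia by 0.43 (0.00666), Garnl3 by 0.40 (0.0155) and Sox5 by 0.42 (0.0490). Sox5 was at -0.02 once span and GC content were modelled.

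Tle4 was not called between GF and SPF, at 471, 471 and 536 CPM in SPF, 476, 542 and 434 in CGF and 445, 404 and 396 in GF. GF minus SPF was -0.25 (SE 0.11, edgeR adjusted p = 0.0781). Neither were Crym (-0.02), Sulf1 (-0.02), Thsd7b (-0.11), Rxfp1 (0.22), Pcsk5 (0.22) or Nfib (0.29, adjusted p = 0.0670), although Nfib was called inside the cluster (0.35, adjusted p = 0.0230).

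Among receptors of transmitters, the mu opioid receptor gene Oprm1 (chr10:6758506-7038198, + strand) had a large change. It stood at 33.0, 25.6 and 27.2 CPM in SPF, 27.5, 47.2 and 23.4 in CGF and 267, 213 and 217 in GF. GF libraries lay far above the rest, by 3.04 against SPF (SE 0.18, edgeR adjusted p = 1.94e-10) and by 3.18 inside the cluster. The gene overlaps Ipcef1 on the opposite strand, and whether counting used strand is not given in the sources used here. Whether its counts hold reads of Ipcef1 was not tested. Of 29 neuromodulator receptors, 5 were higher and 8 lower, and inside the cluster 4 and 6 of 27. For the class difference, 2 of 42 neuromodulator receptors were higher and 1 lower, and Oprm1 was not called.

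Glutamate and GABA receptor subunits moved unequally. Of 9 AMPA and kainate subunits 4 were higher and 2 lower, of 7 metabotropic receptors 4 were higher and 1 lower, and of 5 NMDA subunits none was called, although inside the cluster 1 of the 5 was higher and 1 lower. Grik2 was at 528, 530.0 and 605 CPM in SPF, 478, 589.8 and 406 in CGF and 1016, 987 and 960.4 in GF (0.83, edgeR adjusted p = 3.01e-05). Grm5 was at 646, 501 and 694, then 717, 759 and 773, then 1217, 1154 and 1341 CPM (1.01, adjusted p = 3.25e-06). Grm2, the presynaptic metabotropic receptor, was at 15.98, 22.0 and 19.5, then 9.56, 14.2 and 16.1, then 4.02, 5.92 and 6.53 CPM (-1.82, adjusted p = 2.31e-05). In each of these genes GF libraries did not overlap the others. Of 13 GABA receptor genes, 7 were higher and 0 lower, with a median of 0.304, and Gabrb2 changed by 0.76 (adjusted p = 8.76e-05) and Gabra2 by 0.84 (4.39e-05).

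The potassium channel list was called in both directions at shares near those of all genes. Of 38 genes in the potassium channel list 12 were higher and 9 lower, and of 23 sodium and calcium channel genes 3 were higher and 8 lower. Inside the cluster the counts were 8 higher and 11 lower of 38, and 1 higher and 9 lower of 21. Kcnt1, a sodium-activated potassium channel, was at 199, 182 and 192 CPM in SPF, 142, 186 and 205 in CGF and 59.5, 84.6 and 58.0 in GF (-1.50, edgeR adjusted p = 1.65e-07). Cacnb3, a calcium channel subunit, was at 83.9, 88.8 and 92.8, then 61.0, 66.8 and 87.7, then 29.0, 30.0 and 35.7 CPM (-1.49, adjusted p = 1.18e-07).

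Of 17 genes of glutamate release 5 were higher and 8 lower. The priming factor Unc13a was at 261, 270 and 242 CPM in SPF, 243, 216 and 259 in CGF and 113, 125 and 127 in GF, which was -1.08 for GF minus SPF (edgeR adjusted p = 1.86e-07). Cplx1, a clamp of fusion, changed by -1.21 (adjusted p = 2.24e-05). The active zone protein Rims1 was at 1201, 1194 and 1359, then 1169, 1306 and 936, then 2053, 2179.5 and 2004 CPM, a change of 0.73 (adjusted p = 1.32e-04), and Snap25 changed by 0.65 (0.00149).

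Of 45 axon guidance and adhesion genes tested, 28 were higher and 1 lower in GF than in SPF, with a median of 0.581 beside 0.010 over all genes. Inside the cluster the count was 19 higher and 3 lower of 44, with a median of 0.381. Robo2, a receptor of Slit, was at 116, 162 and 160 CPM in SPF, 172, 163 and 105 in CGF and 341, 507 and 426 in GF (1.53, SE 0.17, edgeR adjusted p = 6.77e-07), and 1.14 inside the cluster. Unc5c, a netrin receptor, was at 53.9, 63.2 and 63.6, then 76.5, 68.2 and 80.4, then 185, 187 and 187 CPM (1.61, SE 0.11, adjusted p = 2.65e-09). Inside the cluster Unc5c was 0.46 (adjusted p = 0.116).

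Genes of ribosomes and respiration moved beside the mitochondrial and ribosomal-RNA-linked shares given above, whose part in these changes was not tested. All 13 mitochondrially encoded respiratory genes were lower in GF, with a median of -2.03. Of 70 ribosomal protein genes 4 were higher and 38 lower, with a median of -0.723. Nuclear genes of oxidative phosphorylation had 26 higher and 15 lower of 73. Of 19 immediate early genes 5 were higher and 2 lower, with Homer1 at 1.26 (edgeR adjusted p = 8.59e-06) and Egr1 at -0.83 (4.68e-04).

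The 8 largest rises between GF and SPF were all genes of lincRNA or antisense type. Gm32250 stood at 3.996, 1.42 and 3.24 CPM in SPF, 1.20, 0.675 and 2.92 in CGF and 214, 178 and 171 in GF. The 8 largest falls included Gm42418, which overlaps ribosomal RNA sequence and was at 9200.1, 9230.4 and 13977 CPM in SPF, 12748, 17517 and 12195 in CGF and 145, 94.0 and 146 in GF (-6.39). Il31ra, a cytokine receptor gene, was at 76.9, 60.4 and 88.9, then 114, 124 and 98.0, then 0.837, 2.25 and 0.544 CPM (-5.96).

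GF and CGF mice were compared with the same GF libraries. By edgeR, 2544 genes were higher in GF (23.4%) and 2514 lower (23.1%). Outside the rule, 2544 were higher and 2513 lower of 10882. Of the 19 corticothalamic genes 7 were higher and 5 lower, with a median of -0.001 beside 0.008. Tbr1 was at -1.26 (adjusted p = 8.23e-06), Fezf2 at -1.56 (2.71e-06), Rprm at -1.52 (2.01e-05) and Ntsr1 at -1.08 (0.0268). Inside the cluster Ntsr1 was at -0.85 (adjusted p = 0.0947). Zfpm2 was at 0.66 (5.54e-04), Cdh18 at 1.01 (3.40e-04) and Hcrtr2 at 1.54 (9.82e-04).

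The functional lists were counted in the same way, and the GF libraries are shared with the comparison against SPF. Of 45 guidance genes 28 were higher and 3 lower in GF than in CGF, of 13 GABA receptor genes 5 were higher and 0 lower, and of 23 sodium and calcium channel genes 4 were higher and 11 lower. Inside the cluster, where 21.7% of all genes were higher and 21.7% lower, the counts were 18 higher and 4 lower of 44 guidance genes (median 0.29, against 0.493 over all chosen nuclei), 5 and 0 of 13 GABA receptor genes, and 2 and 9 of 21 sodium and calcium channel genes. Oprm1 was at 2.72 (edgeR adjusted p = 1.48e-09). Of 70 ribosomal protein genes 2 were higher and 49 lower. The largest rises held Nrg3os, antisense to Nrg3, at 15.5, 8.77 and 7.31 CPM in CGF and 614, 562 and 508 in GF (5.75).

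Within libraries fewer genes were called. Both classes of nuclei of a library share its preparation. The class differences of Oprm1, Grik2, Grm5, Grm2, Kcnt1, Cacnb3, Unc13a and Rims1 were not called for GF minus SPF. For GF minus SPF the class difference was higher at 103 of 16273 genes (0.633%) and lower at 36 (0.221%). For GF minus CGF it was higher at 75 (0.461%) and lower at 30 (0.184%). These totals include genes of the rule. Outside the rule the counts were 101 higher and 36 lower of 16257 for GF minus SPF, and 73 and 30 for GF minus CGF. An unadjusted p under 0.05 was reached by 1679 and 1510 genes, and DESeq2 called 63 and 51. Of the 137 genes outside the rule called for GF minus SPF, 102 were still called the same way when restricted by cluster, 31 were not called and 4 were called the opposite way. For GF minus CGF, 74 of 103 were still called and 29 were not. Restricted by cluster and outside the rule, the calls were 153 higher and 166 lower of 15842 genes for GF minus SPF (0.966% and 1.05%). For GF minus CGF they were 103 higher and 128 lower (0.650% and 0.808%). With both classes chosen after thinning each nucleus, 20 genes were called for GF minus SPF, 3 higher and 17 lower, and 11 for GF minus CGF, 4 higher and 7 lower.

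The 4 genes called the opposite way were Fam19a1, Fras1, Gpc6 and Il1rapl2, which are named here after their values were seen. Further genes changed sign without being called. Fam19a1, a secreted chemokine-like protein, had a class difference of 0.54 for GF minus SPF (edgeR adjusted p = 0.00155) and of -2.01 when restricted by cluster (adjusted p = 2.55e-15). Its unscaled level in all chosen nuclei was 429, 558 and 644 CPM in GF but 17.5, 21.1 and 33.4 in those inside the cluster. Most of its UMIs in GF therefore lay in chosen nuclei outside the cluster. Gpc6, a glypican, went from 0.82 (adjusted p = 7.89e-05) to -0.91 (2.06e-04).

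Genes that held with and without the cluster limit included Nfe2l3, a transcription factor of the cap'n'collar family (chr6:51432670-51458768, + strand). In the chosen nuclei it was at 43.7, 42.2 and 27.1 CPM in SPF, 37.7, 34.0 and 29.7 in CGF and 19.7, 13.5 and 20.5 in GF. In other excitatory nuclei it was at 4.85, 3.59 and 5.44, then 3.57, 3.23 and 4.79, then 6.68, 5.41 and 6.38. The excess in the chosen nuclei was smallest in GF, with a class difference of -1.48 for GF minus SPF (SE 0.24, edgeR adjusted p = 1.32e-04, -1.78 by cluster) and -1.64 for GF minus CGF (adjusted p = 1.87e-04, -2.24 by cluster). A UMI of Nfe2l3 was found in 14.6% of chosen nuclei in SPF, 13.03% in CGF and 14.4% in GF, against 1.93%, 1.52% and 5.19% of other excitatory nuclei. In the shallower oligodendrocyte nuclei, of the depths given above, it was 11.3%, 10.1% and 18.1%, so detection in GF was not above that class.

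Rprm followed the same order within libraries. Other excitatory nuclei held it at 9.11, 8.88 and 11.5 CPM in SPF, 5.63, 10.4 and 6.95 in CGF and 6.64, 3.97 and 6.10 in GF. Its class difference was -0.82 for GF minus SPF (edgeR adjusted p = 0.0208) and -0.96 for GF minus CGF (adjusted p = 0.0120), with cluster-restricted values of -1.02 (0.00138) and -1.28 (1.77e-04). With both classes chosen after thinning, GF minus SPF was 0.0012. B3galt2, a galactosyltransferase, was at 132, 88.0 and 97.0 CPM in chosen nuclei of SPF, 147, 155 and 158 in CGF and 79.1, 63.7 and 63.9 in GF. GF minus CGF was -0.92 (SE 0.10, adjusted p = 4.97e-08), or -1.08 by cluster.

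Among the rises, Hcrtr2 was at 8.94, 20.04 and 37.0 CPM in chosen nuclei of SPF, 5.89, 21.8 and 14.1 in CGF and 42.3, 46.7 and 46.2 in GF, with 2.06 to 3.98 CPM in other excitatory nuclei. GF libraries were the highest, with a class difference of 1.56 for GF minus CGF (SE 0.30, edgeR adjusted p = 0.00209, 1.39 by cluster). Gng12, a G protein gamma subunit, was at 103, 105 and 106, then 93.0, 70.0 and 75.0, then 181, 326 and 196 CPM in the chosen nuclei, a class difference of 0.92 (SE 0.18, adjusted p = 0.00196, 1.08 by cluster). Sash1, a scaffold of signalling, had 1.26 for GF minus SPF (SE 0.21, adjusted p = 1.92e-04, 1.35 by cluster), but -0.57 with both classes chosen after thinning.

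Rgs4, a regulator of G protein signalling, stood at 36.5, 40.1 and 42.4 CPM in chosen nuclei of CGF and 47.4, 34.7 and 38.8 in GF. In other excitatory nuclei it stood at 77.4, 108 and 83.1 in CGF and 47.0, 46.3 and 47.6 in GF. The class difference was 1.01 for GF minus CGF (SE 0.16, edgeR adjusted p = 7.82e-05, 1.25 by cluster). With both classes chosen after thinning, the GF minus CGF calls of Nfe2l3 (-2.29), Rprm (-0.26), B3galt2 (-0.91), Hcrtr2 (0.64), Gng12 (0.37) and Rgs4 (1.26) were all lost, with adjusted p from 0.116 for Nfe2l3 to 0.991 for Rprm. The GF minus SPF call of Nfe2l3 was lost as well (-1.93, adjusted p = 0.204).

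The class difference of Kcnq5, a voltage-gated potassium channel subunit of the M current (chr1:21398403-21961942, - strand), was called under each of these settings. In the chosen nuclei it was at 733, 616 and 808 CPM in SPF, 638, 441 and 461 in CGF and 919, 909 and 922 in GF. In other excitatory nuclei it was at 1288, 1422 and 1589, then 1367, 1427 and 1016, then 2819, 3003 and 2628. GF libraries were the highest in both classes, and the chosen nuclei were the lower class in every library. GF minus SPF was -0.62 (edgeR adjusted p = 2.91e-05), -1.44 when restricted by cluster (5.20e-16) and -1.27 with both classes chosen after thinning (3.89e-11), while GF minus CGF was -0.29 (adjusted p = 0.206). Kcnq5 overlaps Gm26580 on the opposite strand, and it was picked here after its values were seen.

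Of the 19 corticothalamic genes, the class difference was called at 1 higher and 1 lower for GF minus SPF, with a median of 0.120 beside 0.044 over all genes. The higher one was Zfpm2 (0.50, edgeR adjusted p = 7.88e-04, 0.37 by cluster) and the lower one Rprm. For GF minus CGF 3 of the 19 were higher and 2 lower, with a median of 0.141 beside 0.053. They were Hcrtr2, Rprm, Cdh18 (0.39, adjusted p = 0.0237), Garnl3 (0.37, adjusted p = 0.0258) and Sulf1 (-0.47, adjusted p = 0.00569). Restricted by cluster, Cdh18 was no longer called (0.30, adjusted p = 0.129), while Garnl3 had 0.40 (0.00678) and Sulf1 -0.61 (4.90e-05). After thinning of both classes, Cdh18 was called (0.58, adjusted p = 0.0429) and Garnl3 (0.52, 0.169) and Sulf1 (-0.063, 0.994) were not. Tbr1 and Fezf2, lower in GF in the chosen nuclei, gave class differences of 0.03 (adjusted p = 0.953) and 0.19 (adjusted p = 0.777). Of 45 guidance genes 4 were higher and 0 lower for GF minus SPF, but 2 higher and 6 lower when restricted by cluster. For GF minus CGF 2 were higher and 2 lower, and 1 higher and 8 lower when restricted by cluster. The netrin-G1 gene Ntng1 had 1.01 for GF minus SPF (adjusted p = 3.63e-05) and then -0.68 (adjusted p = 0.142) by cluster. For GF minus SPF, 0 of 14 GABA receptor, 0 of 7 metabotropic, 0 of 6 NMDA, 0 of 19 release and 0 of 20 immediate early genes were called. Higher were 1 of 9 AMPA and kainate, 1 of 23 sodium and calcium channel and 1 of 41 potassium channel genes, with 3 of the 41 lower. Over all genes 0.6% were higher and 0.2% lower. Restricted by cluster, 2 of 19 release genes were higher and 1 lower. Of 41 potassium channel genes 0 were then higher and 5 lower. Of 9 AMPA and kainate genes 1 was higher and 1 lower, and of 6 NMDA genes 0 were higher and 1 lower. The GABA receptor, metabotropic, sodium and calcium channel and immediate early lists held 0 calls. Over all genes 0.966% were higher and 1.05% lower by cluster.

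**Figure D5:**
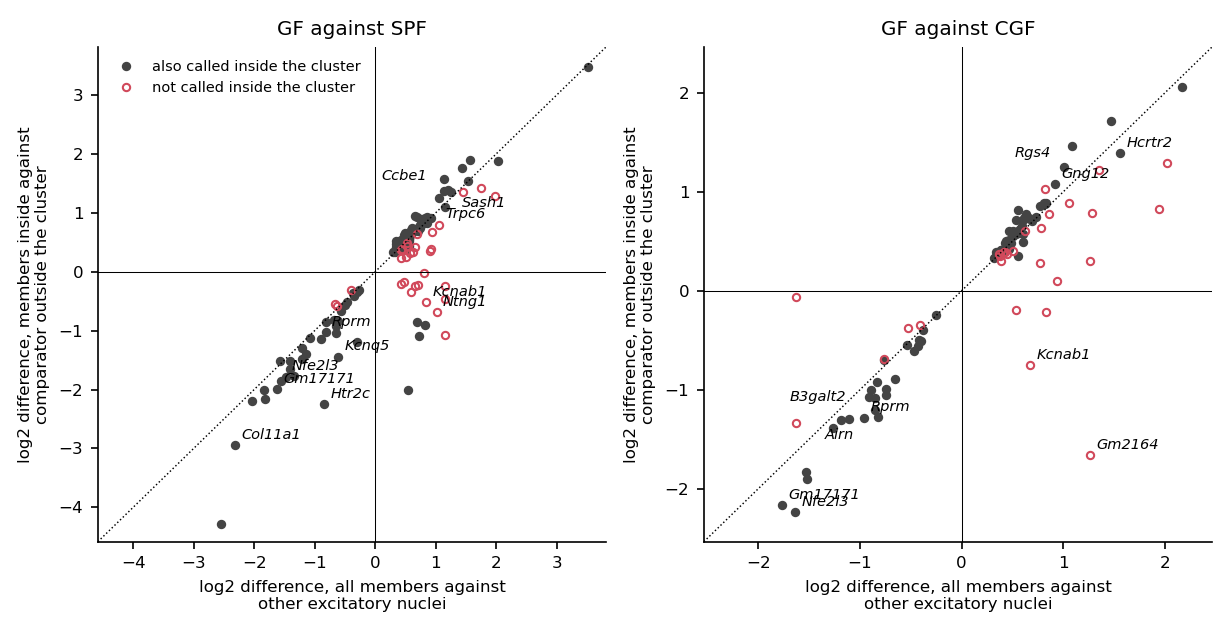
Each point is a gene called for its class difference, for GF minus SPF and GF minus CGF, with the log2 class difference of all chosen nuclei on the x axis and the value restricted by cluster on the y axis. Filled points were also called there and open points were not, and Fam19a1, at 0.54 and -2.01, is among the 4 genes called the opposite way for GF minus SPF.

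The chosen nuclei also varied among themselves. Inside the leading cluster, 3173 genes had a mean of at least 0.2 UMIs per nucleus in every library, and the median coefficient of variation beyond counting error was 0.41. Genes were ranked by their lowest value over the 9 libraries, and those given here were picked after they were seen. Rspo2, an activator of Wnt signalling, ranked first, with a lowest value of 1.28 and a median of 1.53. Lingo2, a leucine-rich repeat membrane protein, had 1.16 and 1.79, and the cadherin Cdh13 had 1.099 and 1.58. The sorting receptor Sorcs3 had 1.19 and 1.32, Col23a1 had 1.07 and 1.64 and Cpa6 had 0.897 and 1.51. Col23a1 and Cpa6 were also among the 15 genes with the largest ratio to other excitatory nuclei.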

How the data were processed

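Nuclei from frozen PFC were sequenced with a droplet 3′ kit, and the authors made UMI count matrices with Cell Ranger 3.1.0 on mm10 (per the file headers and the study). The deposited counts are whole UMIs per gene and barcode, with no normalization. The labels name kit version 3.1 and the series text an older kit, and intronic reads and strand setting are not given in the sources used here.

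Nuclei with at least 200 genes and at most 10% mitochondrial UMIs were kept (66602). Library totals were 20336250 to 26949210 UMIs in SPF, 22213863 to 26151503 in CGF and 59126586 to 71463928 in GF, which limits low genes in SPF and CGF. The members and gene lists were chosen with earlier results of these data known. Members were set by UMI limits, summed per library and tested in edgeR 4.0.16 (R 4.3.3; filterByExpr, TMM, quasi-likelihood, Benjamini-Hochberg at 0.05), with all 9 libraries in 1 fit. A second fit over 18 sums took the library as a block. DESeq2 1.42.0 was an alternative. Shares used exact permutation tests (scipy 1.17.1). Excitatory nuclei were clustered per group with scanpy 1.11.5 (Leiden, 2000 variable genes, 20 components, 20 neighbours, resolution 1) without the genes of the rule. Doublets were scored by simulated doublets and marked, not removed. Coordinates are from GENCODE vM21 (GRCm38, the mm10 build), which matched 30766 of 30905 genes. Scripts were tested on simulated data.

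Named genes were, per comparison, the 8 largest rises and falls with a mean of at least 20 CPM and no overlap between groups (the 5 largest for class differences), the 15 identity genes with the largest lowest ratio and a mean of at least 50 CPM, up to 2 called genes per list and direction, and the corticothalamic list. Those are described in part. Alternatives were other normalization, no filter, thinning, stricter limits, removal of doublets or of 1 library, a span and GC trend, and, added after seeing the data, limits by cluster. The libraries came from separate mice, and no batch is labelled. Some genes of the lists are not reported here.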

Additional observations from a re-analysis of the deposited data

Results flagged for a closer look

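The class difference of a gene is its log2 level in the layer 6 corticothalamic nuclei minus that in other excitatory nuclei of the same library. The genes here had class differences that were unequal between groups by edgeR's quasi-likelihood test with Benjamini-Hochberg adjustment. For CGF minus SPF these were Col11a1 (-2.39) and Nrg1 (-0.39), and both lost the call with both classes chosen after thinning (adjusted p = 1).

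For GF minus SPF the class difference was higher at Gm13391 (1.98), Sash1 (1.26), Ccbe1 (1.13), Trpc6 (1.05) and Ntng1 (1.01). It was lower at Col11a1 (-2.32), Gm17171 (-1.63), Nfe2l3 (-1.48), Gm32647 (-1.15) and Gm13561 (-1.08). Gm17171 is antisense to Etl4, and in other excitatory nuclei it stood at 6.21, 4.85 and 6.09 CPM in SPF and at 27.1, 26.9 and 29.4 in GF. Restricted by cluster, Gm13391 had 1.29 (adjusted p = 0.223), Trpc6 0.80 (0.0619) and Ntng1 -0.68 (0.142), so these 3 were no longer called, while the values were 1.38 for Ccbe1, -1.99 for Gm17171, -1.39 for Gm32647 and -1.13 for Gm13561. With both classes chosen after thinning each nucleus to 2000 UMIs, each of these 10 genes lost its call, with adjusted p of at least 0.204 (Nfe2l3), and Sash1, Trpc6 and Ntng1 also turned.

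For GF minus CGF the class difference was higher at Hcrtr2 (1.56), Gm2164 (1.26), Rgs4 (1.01), Gng12 (0.92) and Igfbp4 (0.86). It was lower at Gm17171 (-1.77), Nfe2l3 (-1.64), Airn (-1.18), Rprm (-0.96) and B3galt2 (-0.92). Restricted by cluster, Gm2164 had -1.66 (adjusted p = 0.280) and Igfbp4 0.78 (0.0555), while Gm17171 had -2.17 and Airn -1.31. With both classes chosen after thinning, each of these 10 genes lost its call, with adjusted p of at least 0.116 (Nfe2l3), and each kept its direction. The part of library depth in these differences was not tested beyond the thinned values given with the alternatives.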

How the results depend on the processing

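No paired analysis was possible because the groups share no mouse numbers. GF libraries were deeper and differed in make-up, which cannot be told apart from the germ-free state, and 139 to 304 nuclei per SPF or CGF library limit low genes there. The cause of the changes below was not tested. The counts of called genes below are over all genes tested, including those of the rule. Between groups, the counts of 5327, 5058 and 11 genes (GF against SPF, GF against CGF, CGF against SPF) became 1002, 1013 and 2 with sums thinned to the smallest total, and 1202, 1110 and 5 with members chosen after thinning. For CGF against SPF the count was 4 under stricter limits, 105 with no filter, 31 by DESeq2 and 57 over all nuclei of the leading cluster. Leaving out 1 library gave 4674 to 4969, 4374 to 4707 and 4 to 15, with 4 without SPF mouse 30 or CGF mouse 17. For class differences, the counts of 139, 105 and 2 became 63, 51 and 1 by DESeq2, 20, 11 and 0 with both classes chosen after thinning, and 321, 233 and 10 when restricted by cluster. With no filter, GF against CGF had 171 and the CGF with SPF pair 15; without doublets, GF against SPF had 240 and the CGF with SPF pair 6. Leaving out 1 library gave 75 to 217, 45 to 189 and 1 to 14: GF against SPF had 83, 75 and 85 without SPF mice 30, 31 and 32 and 217 without GF mouse 5, GF against CGF had 45 and 63 without CGF mice 18 and 19 and 189 without GF mouse 5, and CGF against SPF had 14 without CGF mouse 18, 6 without SPF mouse 32 and 1 without SPF mouse 30, SPF mouse 31 or CGF mouse 17. Share differences ranged from 1.13 to 2.34, 1.54 to 2.75 and -0.741 to 0.0997 points when 1 library was left out. GF minus SPF turned to -0.125 as a share of all nuclei, and CGF minus SPF to 0.177 under stricter limits and to 0.0997 without 1 library. Of the values of named genes under these alternatives, 1897 kept direction and side of the threshold, 215 kept direction but lost the call, 15 gained it and 27 turned. Class differences restricted by cluster turned for GF minus SPF at Fam19a1 (-2.01), Fras1 (-0.85), Gpc6 (-0.91), Il1rapl2 (-1.09), Ntng1 (-0.68), Kcnab1 (-0.52) and Cacna2d3 (-0.35), and for GF minus CGF at Gm2164 (-1.66), Kcnab1 (-0.75) and Cacna2d3 (-0.19). With both classes chosen after thinning they turned for GF minus SPF at Fam19a1 (-0.82), Sash1 (-0.57), Ntng1 (-0.51), Fras1 (-0.29), Trpc6 (-0.046) and Rprm (0.0012). Outside the values counted, the class difference of Fras1 for GF minus CGF turned by cluster, from 0.83 to -0.21, as did those of some genes not named. GF minus SPF in the chosen nuclei turned inside the cluster at Cacna2d3 (-0.31) and Kcnab1 (-0.22), over all nuclei of the cluster at Cacna2d3 (-0.33), Kcnab1 (-0.23) and Thsd7b (0.29), with members chosen after thinning at Cacna2d3 (-0.036), with thinned sums at Chrna5 (0.31) and with the span and GC trend removed at Sox5 (-0.021). GF minus CGF turned over all nuclei of the cluster at Pcsk5 (-0.60) and Thsd7b (0.34) and with thinned sums at Nfib (-0.027).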
